A study of Mus musculus with 18 samples.

Results

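Replication-dependent histone genes encode the core histones H2A, H2B, H3 and H4 and the linker histone H1, which package newly copied DNA. The deposited count table of whole mouse liver held 69 such genes, named Hist1h, Hist2h, Hist3h or Hist4h for the cluster they lie in and without the suffix that marks pseudogenes. Of these, 31 had at least 10 reads summed over 18 libraries and are described here, among 23512 genes of any kind with that many reads and 55421 genes in the table. They comprised 5 H1, 5 H2A, 8 H2B, 3 H3 and 10 H4 genes, most of them in the Hist1 cluster on chromosome 13. A filter on total reads favors genes that are high in any group, and 22 of the 31 genes reached 10 reads in the 12 control libraries alone.

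In dividing cells these genes are switched on in S phase, and their mRNAs end in a short hairpin, the stem-loop, that is held by the stem-loop binding protein (Slbp) in place of a poly-A tail. Poly-A selected libraries such as these therefore miss the stem-loop ended mRNA and catch copies that were polyadenylated, often further downstream. HIRA is a chaperone that places the replacement histone H3.3 into chromatin outside of replication, whereas H3.1 and H3.2, made from Hist genes, are placed at replication. In an adult liver, where few hepatocytes divide, little replication-dependent histone mRNA is normally made.

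The study compared livers of 3 groups, each with 3 males and 3 females, all injected at 6 months of age with an adeno-associated virus (AAV) and sampled 12 months later. HIRA KO mice carried HIRA fl/fl alleles and received AAV8 Tbg-Cre. HIRA fl/fl AAV ctl mice carried the same alleles and received AAV8 Tbg-MCS, which has no Cre, and WT AAV Tbg-Cre mice were wildtype and received the Cre virus. Every mouse thus received AAV8, and floxed alleles or Cre alone were present in 1 control group each. The Tbg promoter drives Cre in hepatocytes, so the other cells of the liver keep HIRA and contribute to the RNA of the whole tissue. Each library is 1 mouse, and in such bulk RNA fewer cells of a type and less RNA per cell cannot be told apart.

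The libraries held 15210023 to 24389407 reads on genes. Hira itself (chr16:18877037-18970309, mm10) had 3.71, 3.00 and 9.42 CPM (reads of a gene scaled to the depth of its library) in HIRA KO males against 3.59 to 7.96 in control males, and 3.71, 3.02 and 4.28 in HIRA KO females against 4.43 to 7.62 in control females. The library labelled HIRA KO male replicate 3 thus had more Hira reads than any control, and over both sexes Hira differed by -0.47 on the log2 scale (SE 0.23, adjusted p = 0.141 in edgeR's quasi-likelihood test). Without that library Hira differed by -0.82 (adjusted p = 0.00517), and whether its label is right was not settled here. Some other values of that library lay with the HIRA KO males, such as the hepatocyte marker Apoa1 at 1953 CPM (6160 to 10838 in control males), the cholangiocyte marker Krt19 at 10.0 (1.53 to 2.94) and H3f3a, an H3.3 gene, at 55.2 (23.9 to 28.2). Of the other cholangiocyte markers in that library, Spp1 at 149 (36.8 to 80.1) and Sox9 at 25.4 (3.44 to 11.0) did too. Epcam at 3.34 (1.13 to 4.34) and Krt7 at 0.861 (0.828 to 2.46) lay within the range of control males. The 3 HIRA KO male libraries also held few weakly covered genes: genes with 4 to 9 reads numbered 0.125 to 0.153 of those with 10 to 99 reads, against 0.402 to 0.552 in the other libraries. Most of the 31 histone genes had fewer than 100 reads in every library, so results are given for each sex, and females also without the HIRA KO male libraries in the fit. Hepatocyte markers were abundant everywhere, with summed levels of 128473 to 199892 CPM in HIRA KO and 120685 to 163892 CPM in controls, most of it Alb. Of 6 such markers 0 were called higher and 1 lower, Apoa1 at -1.29 (adjusted p = 5.15e-04), and on the adjusted p alone 2 were higher and 4 lower. Of the other cell types, 4 of 5 cholangiocyte markers were higher in HIRA KO, with sums of 174 to 252 CPM against 45.5 to 96.5 in males and 191 to 282 against 75.6 to 185 in females. Of the stellate cell markers 2 of 4 were higher, and 1 of 4 T cell and 1 of 2 NK cell markers, but 0 of 5 Kupffer cell, 0 of 3 endothelial and 0 of 3 B cell markers. No marker was at 0 in all libraries, and the part of these cell types in the histone values was not tested.

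The stem-loops of the genes that carry the results are shown first, since the stem-loop is where the usual histone mRNA ends. Capitals mark the hairpin, 6 paired bases on each side of a loop of 4, and lower case the 5 genomic bases on either side (mm10, GENCODE vM21 transcripts, DNA letters in the sense of the mRNA).
Hist1h1c, chr13:23739512-23739527, plus strand: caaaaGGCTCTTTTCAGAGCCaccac
Hist1h1d, chr13:23555787-23555802, plus strand: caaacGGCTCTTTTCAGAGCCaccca
Hist1h2ac, chr13:23683477-23683492, minus strand: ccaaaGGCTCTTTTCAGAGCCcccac
Hist1h3c, chr13:23745047-23745062, minus strand: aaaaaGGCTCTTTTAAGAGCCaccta
Hist1h4d, chr13:23581950-23581965, plus strand: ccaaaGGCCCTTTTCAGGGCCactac
Hist1h4h, chr13:23531458-23531473, plus strand: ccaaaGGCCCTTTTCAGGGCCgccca
Hist1h4i, chr13:22040966-22040981, minus strand: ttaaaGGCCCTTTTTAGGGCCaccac
Hist1h4j, chr13:21735437-21735452, plus strand: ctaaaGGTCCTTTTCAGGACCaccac
Each of these hairpins lay 24 to 36 bases after the stop codon, in the 3′ untranslated part of an intronless gene. The H1, H2A and H3 hairpins shown share a stem that begins GGCTCT, whereas the stem of H4 genes began GGCCCT or, in Hist1h4j and Hist1h4b, GGTCCT.

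A stem-loop of this form was found in the longest annotated coding transcript of 25 of the 31 genes (80.6%). In 20 of these 25 the annotated transcript ran on for at least 100 bases after the hairpin, with a median of 385 bases and a range of 23 to 4884, and in 12 a poly-A signal (AATAAA or ATTAAA) lay in its last 50 bases. Among the 38 histone genes with fewer than 10 reads, 20 had the hairpin, and the annotation ran on for at least 100 bases in 3 of them, with a median of 35.0 bases. This is a description of the annotation, since a longer transcript also offers more room for reads. Hist1h1d had the longest such extension, 4884 bases, followed by Hist4h4 with 2445, Hist1h2ac with 2010 and Hist1h2be with 1861, and Hist1h1c had 840, whereas Hist1h4h had 46. Of the 6 genes without a hairpin, Hist1h2bc and Hist2h2be are the most abundant H2B genes by reads, and the models of Hist1h2af, Hist1h2an and Hist1h4k end near the stop codon.

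**Figure D1:**
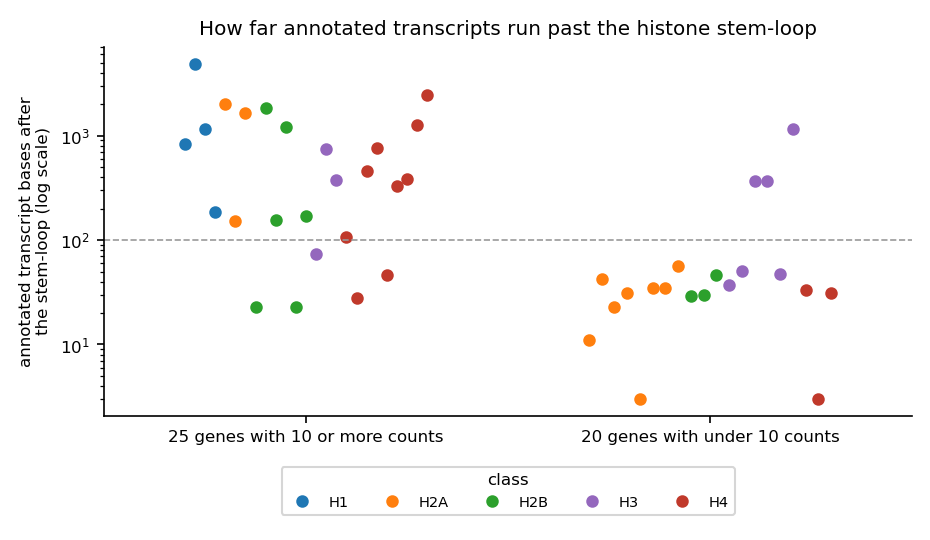
Annotated transcript bases after the stem-loop (vertical axis, log scale) for the 25 histone genes with 10 or more counts and the 20 with under 10 counts that have a stem-loop, colored by class. The dashed line is at 100 bases, which 20 of the first set and 3 of the second exceed.

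The promoters of 3 called H1 and H4 genes are shown because histone genes of 1 class can share short upstream motifs. Each is the 120 bases before the RefSeq start on GRCm38.p6, in which capitals mark the letters of 3 motifs on either strand. The motifs searched were the H1 box, AAACACA, the box of letters CCAAT, and the box of letters TATAAA.
Hist1h1c, chr13:23738687-23738806, plus strand: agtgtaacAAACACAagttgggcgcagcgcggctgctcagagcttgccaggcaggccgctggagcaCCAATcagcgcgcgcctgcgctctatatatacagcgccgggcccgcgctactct
Hist1h1d, chr13:23554912-23555031, plus strand: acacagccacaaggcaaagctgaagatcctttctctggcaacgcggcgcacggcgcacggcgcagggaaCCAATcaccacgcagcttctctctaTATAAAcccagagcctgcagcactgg
Hist1h4j, chr13:21734914-21735033, plus strand: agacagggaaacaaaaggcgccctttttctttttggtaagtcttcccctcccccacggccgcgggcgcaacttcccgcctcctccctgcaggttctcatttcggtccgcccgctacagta
Over the 250 bases before the start and on either strand, CCAAT was present in 21 of the 28 histone genes with a RefSeq promoter, against 33.8% of 32851 promoters of all genes. TATAAA was present in 13 of 28, against 12.4% of all promoters. The H1 box was present in 4 of the 5 H1 genes and in no promoter of another histone class, against 6.25% of all promoters. Of the 9 H4 promoters, 3 held CCAAT and 3 TATAAA. A match of letters is a description of the window and not a measured binding site.

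By reads, the 31 genes were dominated by Hist1h2bc, an H2B gene, and Hist1h1c, which encodes the linker histone H1.2. Together they made up 87.0% to 93.9% of the reads on the 31 genes in each library. In FPKM, which scales reads by gene length and depth as the authors computed it, Hist1h2bc averaged 90.1 ± 10.9 (SD, n = 12) in controls and 115 ± 11.6 (n = 6) in HIRA KO, and Hist1h1c 14.1 ± 3.63 and 48.6 ± 17.7. On that scale Hist2h2aa2, an H2A gene with no reads, averaged 12.8 in control males and 26.9 in control females. The most abundant H4 genes were Hist1h4i, at 2.51 ± 0.954 FPKM in controls and 5.15 ± 2.80 in HIRA KO, and Hist1h4h, at 1.43 ± 1.10 and 8.05 ± 5.10. In HIRA KO females 26 to 28 of the 31 genes had at least 1 read, against 13 to 25 in control females. In HIRA KO males 14 to 18 had a read and in control males 13 to 21, so those groups overlapped. The 31 genes include some that reached 10 reads only with the HIRA KO libraries, which favors HIRA KO in these counts. Of all 55421 genes, 20564 to 22245 had a read in HIRA KO females against 19627 to 21639 in control females. In males the ranges were 16329 to 17821 and 18082 to 20968.

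Summed over genes, the H1 and H4 classes were higher in every HIRA KO library than in any control of the same sex. H4 reads reached 10.7 to 13.8 CPM in HIRA KO males against 1.80 to 4.15 in control males, and 4.93 to 8.90 against 1.75 to 2.94 in females. H1 reads, nearly all from Hist1h1c, came to 73.5 to 108 CPM against 20.4 to 37.2 in males and 41.6 to 135 against 15.1 to 29.4 in females. For H2A and H3 the groups separated in females, at 3.88 to 7.02 against 2.29 to 3.76 CPM and at 1.78 to 3.02 against 0.309 to 0.596 CPM, and overlapped in males. For H2B, which Hist1h2bc dominates, they overlapped in CPM in both sexes, at 118 to 146 against 90.3 to 129 CPM in males and 104 to 173 against 89.5 to 124 in females. In FPKM the H2B sums of the same genes did not overlap, at 134 to 146 against 98.2 to 130 in males and 134 to 176 against 96.5 to 129 in females. Over all 69 genes in FPKM, which include those with under 10 reads, the male sums of H2A (80.4 to 104 against 27.5 to 54.9) and H3 (5.97 to 10.5 against 0.961 to 2.43) did not overlap either. The female sums of H3 (7.22 to 11.1 against 0.846 to 2.86) and H2B (212 to 268 against 148 to 197) also stood apart. Overlap remained over these genes for H2A in females (99.8 to 153 against 68.4 to 106) and H2B in males (168 to 232 against 148 to 201). With Hist1h1c and Hist1h2bc left out, the remaining 29 genes summed to 23.8 to 31.3 CPM in HIRA KO males against 7.89 to 12.3 in controls, and to 15.6 to 42.3 against 9.57 to 13.2 in females. Apart from those over all 69 genes, the sums include genes that reached 10 reads only with the HIRA KO libraries. All sums describe these libraries and were not tested.

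**Figure D2:**
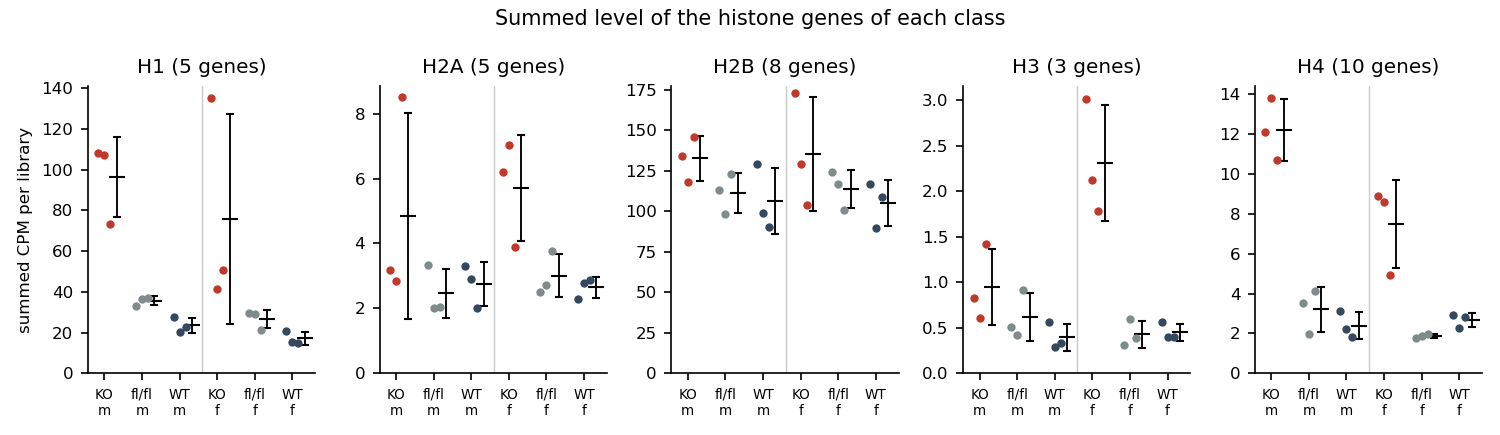
Summed CPM of the histone genes of each class in each library (KO, HIRA KO; fl/fl and WT, the control groups; m, males; f, females), with the mean and SD of each group of 3 beside its points (SD bars are not drawn below 0). In the H1 and H4 panels every HIRA KO library lies above every control of its sex, and in the H2B panel the groups overlap on this scale.

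The question of the main comparison was which histone mRNAs differ when hepatocytes lose HIRA for 12 months, with both control groups pooled. Over both sexes 9 of the 31 genes were higher in HIRA KO and 0 lower, at an adjusted p below 0.05 and an absolute log2 fold change above 1. Of all 23512 genes tested, 4.81% were called higher and 3.70% lower. The same 9 genes passed on the adjusted p alone, which 8.92% of all genes did upward and 11.6% downward. The higher genes were Hist1h1c and Hist1h1d (H1), Hist1h2ac (H2A), Hist1h3c (H3) and Hist1h4c, Hist1h4d, Hist1h4h, Hist1h4j and Hist1h4k (H4), that is 2 of 5 H1, 1 of 5 H2A, 0 of 8 H2B, 1 of 3 H3 and 5 of 10 H4 genes. The median log2 fold change was 1.92 over the 31 genes and also 1.92 over the 27 for which a fold could be formed, with bounds in place of folds where a group had no reads, against -0.03 over all genes. These medians and the calls by class include 9 genes that reached 10 reads only with the HIRA KO libraries. Of the called genes these were Hist1h3c, Hist1h4j and Hist1h4k. Among the 22 genes that reached 10 reads in controls alone, 6 were higher and 0 lower, against 4.07% higher of the 20943 such genes in all. Their median log2 fold change was 1.19, with 19 of 22 above 0, against -0.08 and 44.2% of all such genes. By class the median of these 22 was 2.03 for H1 (4 genes), 0.92 for H2A (3), 0.43 for H2B (6), 1.69 for H3 (2) and 1.92 for H4 (7).

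Hist1h1c, which encodes the somatic linker histone H1.2, had 107, 99.2 and 69.9 CPM in HIRA KO males and 124, 39.2 and 49.4 in HIRA KO females. Its controls ranged from 20.3 to 36.9 CPM in males (median 29.9) and from 14.9 to 28.8 in females (median 20.7). Every HIRA KO library was above every control of its sex, which held in both sexes for no other of the 31 genes in CPM and for 1.39% of all genes. Hist1h1c rose by a log2 fold change of 1.69 (SE 0.20, adjusted p = 3.56e-06 in edgeR's quasi-likelihood test), split into 1.65 for males at an adjusted p of 3.99e-04 and 1.72 for females at an adjusted p of 5.58e-04. Without HIRA KO female replicate 1 the female value was 1.04 (adjusted p = 0.0137). The ratio of pooled reads was 3.10 in males (exact 95% interval 2.97 to 3.24) and 3.09 in females (2.94 to 3.24), intervals that cover counting error only. The gene occupies chr13:23738808-23740367, and 8.54% of its 50-base windows recur in another gene.

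Hist1h1d, which encodes H1.3, was almost unread in controls. It had 0, 88 and 70 reads in HIRA KO males and 173, 45 and 23 in HIRA KO females, against 0 to 3 reads in control males and 0 to 8 in control females. All HIRA KO females were above all control females, whereas HIRA KO male replicate 1 had no reads. Its log2 fold change was 4.78 (SE 0.76, adjusted p = 1.17e-04), split into 4.97 for males (adjusted p = 0.00380) and 4.59 for females (0.00902). In females the call was lost without HIRA KO female replicate 1, the highest library, at a log2 fold change of 3.09 and an adjusted p of 0.154.

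The other H1 genes did not pass the edgeR test with all libraries. Hist1h1e, which encodes H1.4, had 21, 60 and 0 reads in HIRA KO males and 23, 0 and 6 in HIRA KO females, against at most 11 in a control (log2 fold change 2.37, SE 0.95, adjusted p = 0.0794). It was called over both sexes without the library labelled HIRA KO male replicate 3 (adjusted p = 0.0294) or HIRA fl/fl AAV ctl male replicate 2 (0.0420). On log2(FPKM + 1) it differed by 0.76 (adjusted p = 0.00197 in limma), in a test whose filter it reached only with the HIRA KO livers. It shares 496 bases with Hist1h2be on the same strand, and how reads there were counted is not given in the sources used here. Hist1h1a had 34 reads in all, 22 of them in control males and 0 in HIRA KO males, at least 3.63-fold lower there (adjusted p = 0.0546). Without WT AAV Tbg-Cre male replicate 2 it was called lower in males (adjusted p = 0.0469 in edgeR). Hist1h1t, known from the testis, had 19 reads in all.

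Among the H4 genes, which all encode the same core histone, Hist1h4j had the highest fitted value (chr13:21735064-21735837). It had 0, 66 and 15 reads in HIRA KO males and 52, 49 and 31 in HIRA KO females. The 6 control males had no reads and the 6 control females at most 6. The gene reached 10 reads only with the HIRA KO libraries. In females the groups did not overlap, and in males 1 HIRA KO library was at 0 like the controls. The pooled level was at least 54.5-fold higher in males, taking 3 reads as the floor of the 6 control males together, and at least 15.5-fold higher without HIRA KO male replicate 2, which held 66 of the 81 reads. In females it was 30.7-fold higher (exact 95% interval 15.1 to 72.5). The adjusted p was 2.45e-04 over both sexes, 0.00297 in males and 0.0233 in females. The female call was lost in 5 of 18 fits that left out 1 library, namely HIRA KO female replicate 1 or 2, HIRA fl/fl AAV ctl female replicate 3 or WT AAV Tbg-Cre female replicate 1 or 2, with an adjusted p of up to 0.0826. Its FPKM rose from 0.183 ± 0.157 in controls to 2.77 ± 1.76 in HIRA KO.

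Hist1h4h (chr13:23531050-23531519) had 2.82, 0.915 and 4.46 CPM in HIRA KO males against 0 to 0.965 in control males (median 0.226). In HIRA KO females it had 0.848, 2.13 and 0.798 CPM against 0.0427 to 0.887 (median 0.526). The lowest HIRA KO library thus overlapped the highest control in each sex. Its log2 fold change was 2.25 (SE 0.57, adjusted p = 0.00789), split into 3.09 for males (adjusted p = 0.0122) and 1.40 for females (0.412). The difference between the sexes was -1.69 with an adjusted p of 0.491, so it was not shown to differ between them.

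Hist1h4d had 33, 0 and 28 reads in HIRA KO males against at most 4 in a control male, and 3, 9 and 4 reads in HIRA KO females against at most 3 in a control female. The log2 fold change was 3.30 (SE 0.84, adjusted p = 0.00759). Hist1h4c had 26, 0 and 54 reads in HIRA KO males and 16, 14 and 4 in HIRA KO females, against at most 8 in a control (2.66, SE 0.83, adjusted p = 0.0264). In both genes HIRA KO male replicate 2 had no reads, so in males the groups overlapped. Hist1h4d was called in all 18 fits that left out 1 library, and Hist1h4c in 15, with the call lost without the library labelled HIRA KO male replicate 3, HIRA KO female replicate 1 or HIRA KO female replicate 2.

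Some H4 calls rested on 1 library. All 27 Hist1h4k reads of HIRA KO males came from replicate 2, with 8, 4 and 2 reads in HIRA KO females, 2 in all control males and 4 in all control females (log2 fold change 3.46, SE 1.06, adjusted p = 0.0236). Without that library the male difference changed sign, to -1.92, and the call over both sexes was lost, as it was without HIRA KO female replicate 1. Hist2h4 had 50, 23 and 1 reads in HIRA KO males and at most 4 in a control male, and was called in males alone (3.92, SE 1.30, adjusted p = 0.0372), with -0.08 in females. The male call was lost in 5 fits that left out 1 library, and without HIRA KO male replicate 1 the value was 2.74 (adjusted p = 0.175). The difference between the sexes had an adjusted p of 0.292.

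Hist1h4i, the most abundant H4 gene of the controls, differed less. HIRA KO females had 3.50, 2.76 and 1.89 CPM, above the 0.772 to 1.54 of control females (median 1.31), and HIRA KO males had 2.88, 5.90 and 1.06 against 1.06 to 3.14 (median 2.09). Its log2 fold change was 0.91 (SE 0.33, adjusted p = 0.0504), which missed both thresholds. It was called without the library labelled HIRA KO male replicate 3 (1.12, adjusted p = 0.00711) or HIRA fl/fl AAV ctl male replicate 3 (1.00, adjusted p = 0.0363). In females with the HIRA KO male libraries left out of the fit it was 1.13 with an adjusted p of 0.0433. The H4 genes Hist1h4a, Hist1h4b and Hist4h4 had 16 to 45 reads in all and did not pass the edgeR test in either sex. In females Hist1h4a was called with limma voom and sample weights, and differed by 1.03 on log2(FPKM + 1) (adjusted p = 0.00403 in limma). That gene reached the filters on reads and on FPKM only with the HIRA KO livers.

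**Figure D3:**
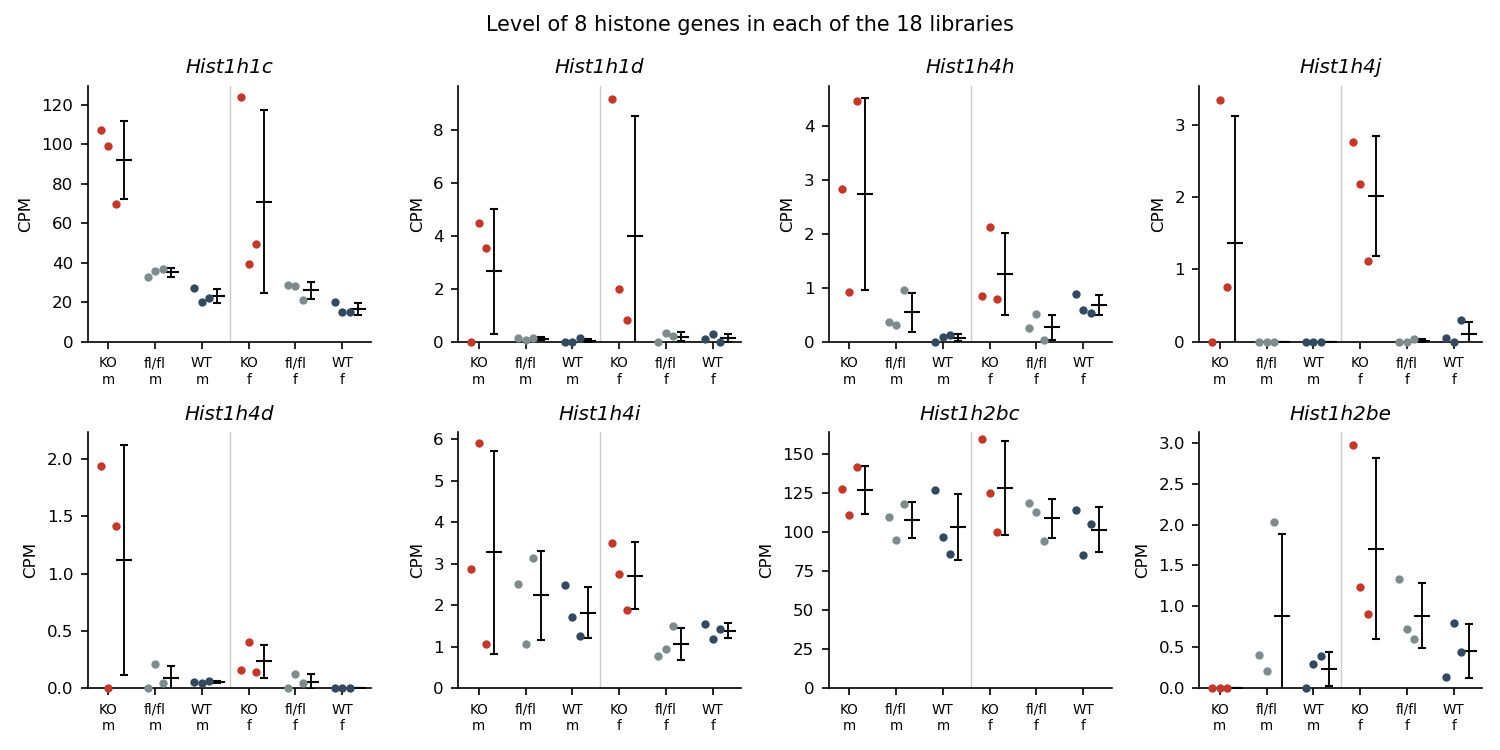
CPM of 8 histone genes in each of the 18 libraries (KO, HIRA KO; fl/fl, HIRA fl/fl AAV ctl; WT, WT AAV Tbg-Cre; m, males; f, females), with the mean and SD of each group of 3 (SD bars are not drawn below 0). Hist1h1c lies above all controls in every HIRA KO library, Hist1h1d and Hist1h4j are near 0 in controls and at 0 in HIRA KO male replicate 1, and Hist1h2bc overlaps between groups.

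Histone H3 of the replication-dependent kind came from 3 genes with few reads. Hist2h3c2 had 51, 38 and 36 reads in HIRA KO females against 1 to 14 in control females, and 0, 0 and 19 in HIRA KO males against 5 to 19 in control males. The female difference was 2.52 on the log2 scale (SE 0.89, adjusted p = 0.112), and 2.51 with an adjusted p of 0.00494 when the HIRA KO male libraries were left out of the fit. In FPKM, all 3 HIRA KO males of this gene stood at 0.820 to 2.36 against 0.288 to 0.974 in control males, and 63.5% of its 50-base windows recur in another gene. Hist1h3c was called over both sexes (adjusted p = 0.0439) on 9 reads in HIRA KO males, 7 in HIRA KO females and 3 and 0 in the controls of each sex, and kept that call in 3 of 18 fits that each left out 1 library. All 9 male reads lay in the library labelled HIRA KO male replicate 3, without which the male difference was -2.40 and that over both sexes 0.87. Hist1h3d had 14, 12 and 0 reads in HIRA KO males and 5, 6 and 11 in HIRA KO females against at most 5 in a control (log2 fold change 2.34, SE 0.90, adjusted p = 0.0697), and was called without the library labelled HIRA KO male replicate 3 (adjusted p = 0.0259) or HIRA fl/fl AAV ctl male replicate 1 (0.0227).

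Of the H2A genes, Hist1h2ac had 20, 42 and 28 reads in HIRA KO females against 1 to 10 in control females, with no overlap. In HIRA KO males it had 4, 0 and 58 reads against 0 to 11. With the sexes combined its log2 fold change was 2.00 (SE 0.69, adjusted p = 0.0447), and 2.15 in females with the HIRA KO males left out of the fit (adjusted p = 0.0412). Over both sexes it was called in 4 of 18 fits that left out 1 library, and without the library labelled HIRA KO male replicate 3 its log2 fold change was 0.42. Hist1h2af was called in males on 37 reads that all lay in replicate 1, against 1 read in 6 controls. Without that library its difference was -1.29. Hist3h2a had 0, 2.85 and 5.11 CPM in HIRA KO males against 1.47 to 2.68, and 4.72, 4.80 and 2.68 in HIRA KO females against 2.01 to 3.24 (log2 fold change 0.51, SE 0.43, adjusted p = 0.415). It lies wholly within Trim17 on the same strand, and how reads that match both genes were counted is not given in the sources used here. Hist1h2an had 13 reads, all in HIRA KO male replicate 1, which left its male level at least 8.75-fold higher (adjusted p = 0.0677), and 85.8% of its windows recur elsewhere. Its FPKM was not at 0 in controls, however, but 1.74 ± 0.608 against 3.70 ± 1.65 in HIRA KO.

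The H2B genes were the class with no higher call over both sexes, in males or in females, with all libraries in the fit. When 1 library was left out, Hist1h2bh (2.47 with all libraries, SE 0.97, adjusted p = 0.0751) was called over both sexes in 3 fits, without HIRA KO male replicate 1 or 2 or WT AAV Tbg-Cre female replicate 1. Hist1h2bj (3.06, SE 1.16, adjusted p = 0.0661) was also called in 3, without HIRA KO male replicate 1, the library labelled HIRA KO male replicate 3 or WT AAV Tbg-Cre female replicate 2. In males, Hist1h2bj was called without HIRA KO male replicate 1 or 3, and Hist2h2be without replicate 3. Hist1h2bh and Hist1h2bj are named here after their values were seen. Hist1h2bc (chr13:23684199-23692908) had 128, 111 and 142 CPM in HIRA KO males against 86.0 to 127 in control males (median 103). In HIRA KO females it had 160, 125 and 100 CPM against 85.7 to 119 (median 109). Its log2 fold change of 0.28 (SE 0.11, adjusted p = 0.0653) came with the smallest SE of the 31 genes. On log2(FPKM + 1) it differed by 0.35 and passed over both sexes in limma (adjusted p = 0.0107), but not in males (0.0561) or females (0.132). Hist2h2be, the next by reads, differed by 0.57 (SE 0.28, adjusted p = 0.144), and the ratio of its pooled reads was 1.82 (exact 95% interval 1.53 to 2.16) in males and 1.12 (0.962 to 1.31) in females.

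Hist1h2be was the 1 gene lower in HIRA KO males and the 1 gene whose difference was called between the sexes. It had no reads in the 3 HIRA KO males against 0, 4, 6, 6, 8 and 42 in control males, at least 10.9-fold lower (adjusted p = 0.0122). Of these 66 control reads 42 lay in HIRA fl/fl AAV ctl male replicate 3, without which the level was at least 4.84-fold lower. In HIRA KO females it had 56, 28 and 25 reads against 3 to 26, a ratio of 2.38 (exact 95% interval 1.78 to 3.20, adjusted p = 0.498). Over both sexes Hist1h2be stood at -2.60 in edgeR (SE 0.98, adjusted p = 0.0673). It was called lower without WT AAV Tbg-Cre male replicate 1 (-2.74, adjusted p = 0.0313). The difference between the sexes had an adjusted p of 0.0437, where 1.17% of all genes were called in that direction. The male call was lost with limma voom and sample weights, on log2(FPKM + 1) and in a fit of males alone. The call between the sexes was lost with limma voom too. The FPKM of Hist1h2be in HIRA KO males was not at 0, however, but 1.37, 1.39 and 0.681 against 0.925 to 1.97 in control males, which overlapped. Hist1h2be overlaps Hist1h1e on the same strand, and its reads fell in the range in which HIRA KO male libraries held few genes, whose part was not tested. Hist1h2bg likewise had no reads in HIRA KO males and 40 in all, with an FPKM of 11.3 ± 1.90 in controls and 13.5 ± 3.77 in HIRA KO.

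Split by sex, 9 genes were higher and 1 lower in males, where 8.79% of all genes were higher and 5.10% lower. In females 3 were higher and 0 lower, where 1.60% of all genes were higher and 0.889% lower. Among the 22 genes with 10 reads in controls alone, 6 were higher and 1 lower in males and 2 higher and 0 lower in females, against 5.88%, 5.73%, 1.63% and 0.998% of all such genes. The 3 female calls, Hist1h1c, Hist1h1d and Hist1h4j, were also called in males. Of the male calls, Hist1h1c, Hist1h1d, Hist1h4h, Hist1h4j and Hist1h2be were kept in all 18 fits that left out 1 library. In a fit of males alone the calls numbered 3, with Hist1h4h and Hist1h2be lost. With limma voom and sample weights they numbered 2, with Hist1h1d lost as well. Without the library labelled HIRA KO male replicate 3, 10 genes were higher and 0 lower over both sexes, where 5.84% of all genes were higher and 4.00% lower. In males 12 were then higher and 2 lower, where 10.8% were higher and 5.33% lower. The lower ones were Hist1h2be and Hist2h3c2, whose other HIRA KO males had no reads (adjusted p = 0.00806). With the HIRA KO male libraries left out of the fit, 6 genes were higher in females, where 2.71% of all genes were higher, the additional ones being Hist1h2ac, Hist1h4i and Hist2h3c2. Without overlap, 10 genes were higher in all HIRA KO females than in all control females (Hist1h1c, Hist1h1d, Hist1h2ac, Hist1h3c, Hist1h3d, Hist1h4a, Hist1h4d, Hist1h4i, Hist1h4j and Hist2h3c2), against 7.46% of all genes. Of these, 7 were among the 22 genes with 10 reads in controls alone, where 7.86% of all such genes separated this way. In males this was Hist1h1c alone, against 4.52% of all genes, and no histone gene was lower without overlap in males or in females, against 8.91% and 7.16% of all genes, or in both, against 2.89%. A gene without reads in a control cannot lie below all controls, and most of the 31 genes had such a control in each sex. The median log2 fold change over the 31 genes was 1.93 in males and 1.64 in females, against -0.04 and 0.00 over all genes, and over the 22 genes with 10 reads in controls alone 1.53 and 1.40.

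**Figure D4:**
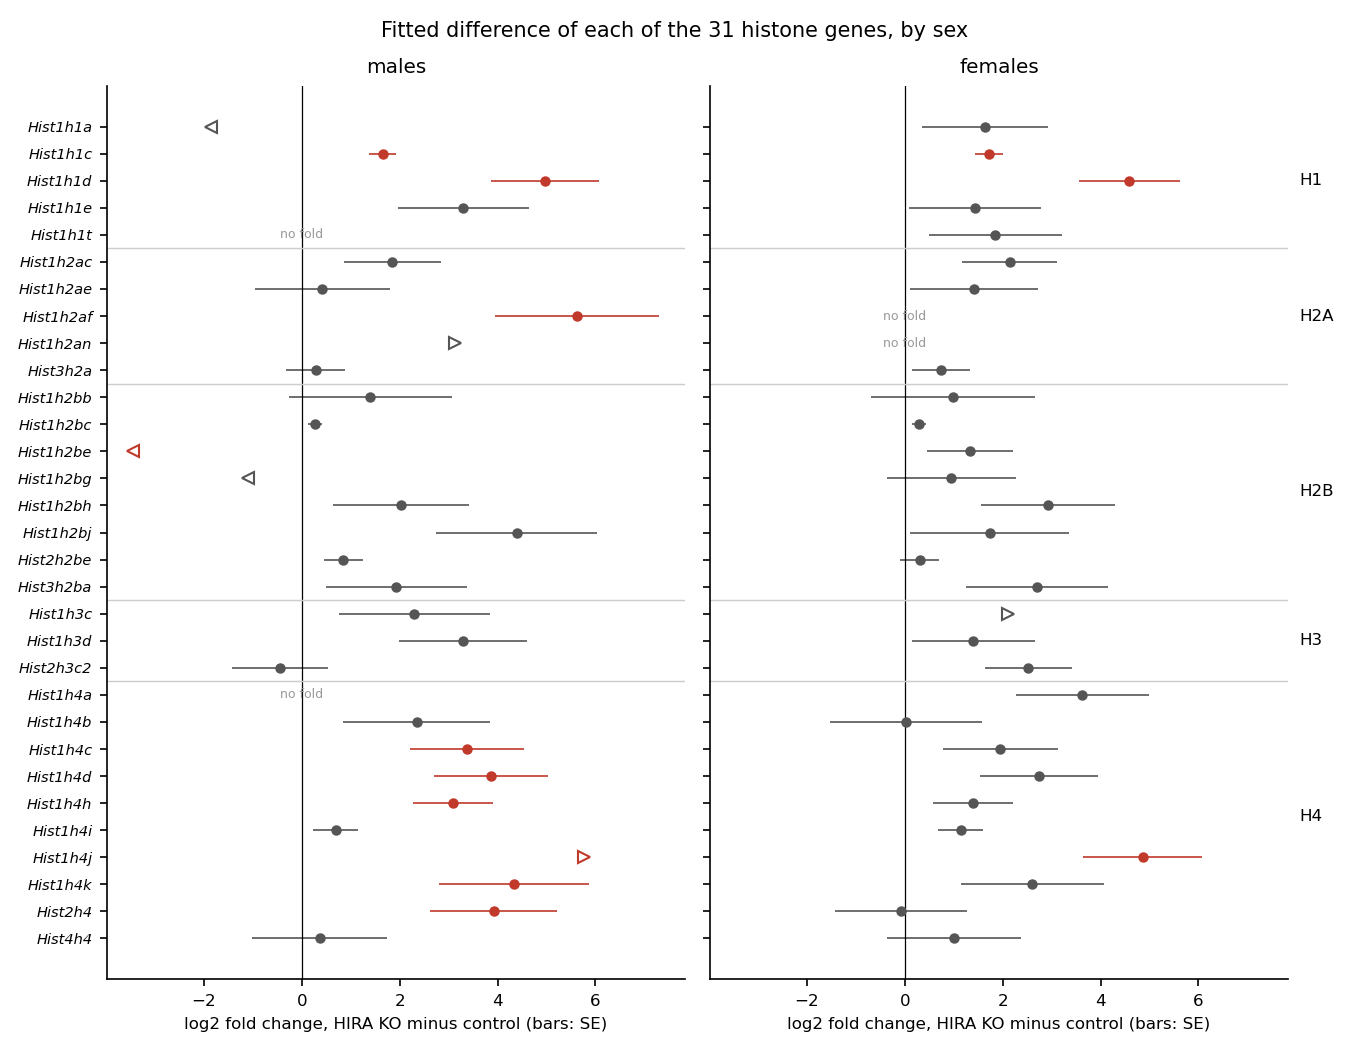
Fitted log2 fold change (HIRA KO minus control, bars are SE) of the 31 histone genes in males and females, ordered by class, with called genes in red. Open triangles mark bounds where 1 group had no reads, no fold is drawn where both had 3 reads or fewer, and most points lie to the right of 0 in both sexes, with Hist1h2be to the left in males.

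Against each control group on its own, which share the same 6 HIRA KO libraries, 4 genes were higher and 1 lower than in HIRA fl/fl AAV ctl livers, where 2.84% of all genes were higher and 2.56% lower. The lower gene was Hist1h2be (-3.12, adjusted p = 0.0461 in edgeR). Against WT AAV Tbg-Cre livers 5 were higher and 0 lower, where 2.93% of all genes were higher and 2.32% lower. Hist1h1c differed by 1.41 from the first (adjusted p = 1.32e-04) and by 2.03 from the second (adjusted p = 3.20e-06). Hist1h1d differed by 4.40 (adjusted p = 0.00547) and 5.39 (adjusted p = 0.00228), and Hist1h4h by 2.25 (adjusted p = 0.0221) and 2.99 (adjusted p = 0.00553). Hist1h4j had at most 1 read in a floxed control and at most 6 in a wildtype control (adjusted p = 0.00206 and 0.00552), and Hist1h4d was called against the wildtype controls alone (4.75, adjusted p = 0.0171). Between the control groups 0 of the 31 genes were called in edgeR, with 1 at an unadjusted p below 0.05. That gene was Hist1h1c, which differed by -0.62 in WT AAV Tbg-Cre from HIRA fl/fl AAV ctl livers (adjusted p = 1.000 in edgeR). Of all 23512 genes, 875 had an unadjusted p below 0.05 and 1 was called.

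Histone genes with fewer than 10 reads were not silent in the other deposited measure. Of the 38 genes, 15 had no reads in any library, yet 26 had an FPKM of at least 1 in 3 or more mice. Their summed FPKM was 116 to 199 in HIRA KO males against 75.2 to 116 in control males, and 172 to 239 in HIRA KO females against 118 to 150 in control females. Among the 31 genes above the threshold, 215 of 558 values were 0 reads, of which 163 had an FPKM above 0. A 50-base window recurred in another gene for a median of 73.8% of windows in the genes under 10 reads and 28.9% in the 31 genes. How each measure treated reads that match several genes is not given in the sources used here.

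On log2(FPKM + 1), tested with limma over 15285 genes with an FPKM of at least 1 in 3 or more mice, 21 of the 31 genes and 26 of the 38 genes under 10 reads were included. Of the 21, 15 were higher in HIRA KO over both sexes and 0 lower at an adjusted p below 0.05 of any size, where 17.1% of all genes were higher and 9.63% lower. Of the 26, 17 were higher and 0 lower. In males 7 of the 21 and 7 of the 26 were higher, where 13.2% of all genes were higher and 7.67% lower. Of these, Hist1h1e, Hist1h4c, Hist1h4j and Hist2h3c2 of the 21 reached the filter only with the HIRA KO livers. So did Hist1h4f, Hist2h3b and Hist2h3c1 of the 26. In females 7 of the 21 and 9 of the 26 were higher, where 5.33% were higher and 3.35% lower. Here Hist1h4a, Hist1h4j, Hist1h4k and Hist2h3c2 of the 21 and Hist1h4m, Hist1h4n and Hist2h3c1 of the 26 reached it only with HIRA KO livers. Those that passed this filter in the controls alone numbered 15 and 21, of which 9 and 12 were higher over both sexes, where 15.9% of the 14150 such genes in all were higher. On this scale Hist2h2aa1, an H2A gene with no reads, differed by 0.87 (adjusted p = 9.96e-04), with an FPKM of 23.5 to 29.1 in HIRA KO males against 6.65 to 14.7 and 22.2 to 34.2 in HIRA KO females against 18.5 to 30.4. Its near-copy Hist2h2aa2, whose windows all recur in another gene, differed by 0.84 (adjusted p = 0.00113). Both passed in males, at 1.29 (0.00102) and 1.24 (0.00129), and not in females, at 0.45 each (0.264 and 0.251). The H3 gene Hist2h3b differed by 1.07 (adjusted p = 1.28e-04), with 1.69 for males (8.30e-05) and 0.45 for females (0.243). The H3 gene Hist2h3c1 differed by 1.19 (adjusted p = 0.00183), with 1.20 for males (0.0206) and 1.18 for females (0.0392). Both H3 genes reached the filter only with the HIRA KO livers, as did Hist1h4f, Hist1h4m and Hist1h4n of the 26. The differences between the sexes on this scale were not tested. Because FPKM of such copies may draw on the same reads, these genes are not separate observations.

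**Figure D5:**
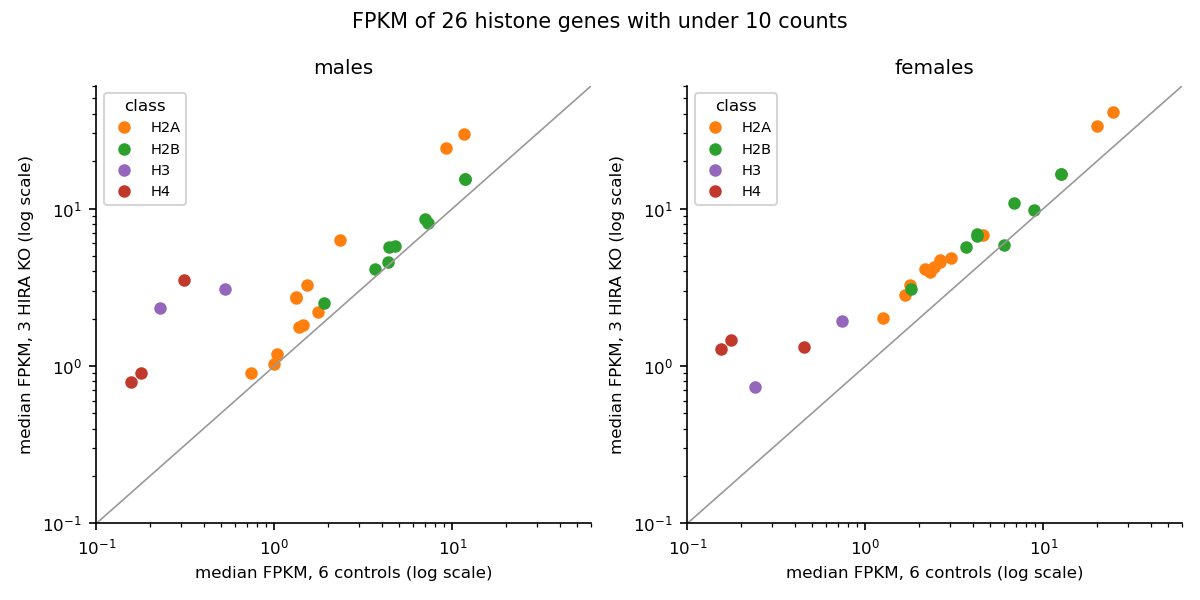
Median FPKM of the 26 histone genes with under 10 counts that reached an FPKM of at least 1 in 3 or more mice, in 3 HIRA KO (vertical) against 6 control livers (horizontal) of each sex, both on log scales and colored by class. The line marks equal values, and most genes lie above it.

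Genes that act with the histone genes were counted from lists, to be read against the 4.81% of all genes called higher and 3.70% called lower over both sexes. Of 11 replacement and variant histones, among them the polyadenylated H3.3 genes that are also made outside of S phase, 2 were higher and 0 lower. H3f3a, 1 of the genes for H3.3, the histone that HIRA deposits, had 53.5 to 66.4 CPM in HIRA KO males against 23.9 to 28.2, and 52.3 to 61.1 in HIRA KO females against 23.3 to 30.9, with no overlap (log2 fold change 1.11, SE 0.08, adjusted p = 4.20e-09). H3f3b, the other H3.3 gene, differed by 0.35 (SE 0.09, adjusted p = 0.0116), below the size threshold. H1fx, which encodes a replacement linker histone, differed by 3.33 (SE 0.56, adjusted p = 1.94e-04), at 0.583 to 2.71 CPM in HIRA KO and 0.0426 to 0.531 in controls.

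Of 20 genes for histone gene transcription and histone mRNA end formation 0 were called in either direction, and the median log2 fold change was -0.11. On the adjusted p alone 2 were lower over both sexes, as 11.6% of all genes were. Slbp, whose product holds the stem-loops shown above, differed by 0.21 (SE 0.17, adjusted p = 0.396). Of 20 genes for H3 and H4 chaperones, 0 were called in either direction over both sexes. In males 1 of them was called lower, where 5.10% of all genes were. Of 45 genes for DNA replication and mitosis, 2 were higher and 1 lower, with a median of 0.04. The mitotic genes Ccnb1 (2.49, SE 0.70, adjusted p = 0.0146) and Plk1 (1.49, SE 0.51, adjusted p = 0.0439) were the higher ones, and Ccne1, the cyclin of the entry into S phase, the lower one (-2.22, adjusted p = 0.0156). The Plk1 call was lost in 14 of 18 fits that left out 1 library, and without HIRA KO male replicate 2 the value was 0.63 (adjusted p = 0.369). Ccne1 was lower in males, at 0 to 0.0588 CPM against 0.257 to 1.25 (adjusted p = 0.00299), with 0.43 in females (adjusted p = 0.860) and a called difference between the sexes (5.30, adjusted p = 0.0301). Pcna, the replication clamp, differed by 0.04 (SE 0.12, adjusted p = 0.857), and Mki67, a marker of dividing cells, by 0.99 (SE 0.28, adjusted p = 0.0158), just under the size threshold. In males Mki67 was called higher (1.49, adjusted p = 0.0135), a call lost without HIRA KO male replicate 1 (1.16, adjusted p = 0.0712), and in females it differed by 0.48 (adjusted p = 0.617), with an adjusted p of 0.368 for the difference between the sexes. Top2a, needed to separate copied chromosomes, differed by 1.13 (SE 0.48, adjusted p = 0.0938). Over the edgeR fits that left out 1 library it ranged from 0.84 to 1.43, with an adjusted p of 0.00142 to 0.231. With limma voom and sample weights it was -0.19. Of 12 cell cycle inhibitors, Cdkn1a (1.51, SE 0.29, adjusted p = 7.58e-04) and Cdkn2c (1.09, SE 0.18, adjusted p = 1.35e-04) were higher, and Cdkn2b, with no reads in HIRA KO males, was lower (adjusted p = 0.00388). Ccne1 and Cdkn2b had few or no reads in HIRA KO males, whose libraries held few weakly covered genes, and the part of this was not tested. Over the alternative fits, log2(FPKM + 1) among them, Ccne1 ranged from -2.34 to -0.03 and Cdkn2b from -3.94 to -0.31. Neither call was kept in all of them. Cdkn2c rose in males (1.93, adjusted p = 3.03e-05), with 0.25 in females (adjusted p = 0.705) and a called difference between the sexes (-1.68, adjusted p = 0.0216). Without the library labelled HIRA KO male replicate 3 its value over both sexes was 0.98, under the size threshold.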

How the data were processed

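Whole-liver RNA of 18 mice in 6 groups of 3 was analysed. Groups, sexes and replicate numbers came from the labels. The authors selected poly-A RNA and made directional libraries. The paper names STAR and HOMER for alignment to mm10 and counting, the submitters' notes STAR, HTSeq and Cufflinks. Whether counting used strand or reads with several matches is not given in the sources used here. The deposited counts are raw reads per gene. The deposited FPKM values are scaled by the authors for depth and length, and blank cells were read as 0.

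Counts of genes with at least 10 reads in total were fitted in R 4.3.3 with edgeR 4.0.16 (TMM, quasi-likelihood test, Benjamini-Hochberg adjustment) to 4 means, 1 per sex for HIRA KO and for the pooled controls. The control groups were compared in a fit with 6 means. Called genes had an adjusted p below 0.05 and an absolute log2 fold change above 1. FPKM were tested as log2(FPKM + 1) with limma 3.58.1, a scale that understates changes of low genes. The alternatives included DESeq2 1.42.0. The fit was tested on simulated data. Intervals are exact and cover counting error only, and a group with no reads was set to a floor of 3 reads over the group. Stem-loops were searched in GENCODE vM21 transcripts as 16 bases with 6 pairs, and promoters came from RefSeq, which listed 28 of the 31 genes. Replicates are separate mice as labelled.

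The genes named are those called, the top 2 of each class by FPKM in controls, those separating in each sex or differing between sexes, and set or called genes of the other lists. Hist2h2be, the genes under 10 reads and a few more were named after their values were seen. The histone genes and the lists of other genes were chosen with earlier results of these data known.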

Additional observations from a re-analysis of the deposited data

Results flagged for a closer look

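In a group of 6 control libraries of 1 sex, a library counted as standing apart where its distance to the nearest of the others was over 0.625 of the group's range. This held in 14 of 68 tests, and chance gives about 1 in 20 for continuous values. That rate does not hold for genes whose reads are mostly 0, where a single read against 0 in the others always passes. In control males these were Hist1h2af at 0.0513 CPM in HIRA fl/fl AAV ctl replicate 1 (next 0), Hist1h2be at 2.03 in HIRA fl/fl AAV ctl replicate 3 (next 0.411), Hist1h3c at 0.155 in WT AAV Tbg-Cre replicate 1 (next 0), Hist1h3d at 0.205 in HIRA fl/fl AAV ctl replicate 1 (next 0.0487) and Hist1h4d at 0.212 in HIRA fl/fl AAV ctl replicate 2 (next 0.0666). The other male ones were Hist1h4h at 0.965 in HIRA fl/fl AAV ctl replicate 3 (next 0.359), Hist1h4k at 0.0975 in WT AAV Tbg-Cre replicate 2 (next 0), Hist2h3c2 at 0.917 in HIRA fl/fl AAV ctl replicate 3 (next 0.424) and H1fx at 0.531 in the same library (next 0.159). In control females they were Hist1h1e at 0.566 in HIRA fl/fl AAV ctl replicate 1 (next 0.197), Hist1h4d at 0.128 in HIRA fl/fl AAV ctl replicate 2 (next 0.0427), Hist1h4j at 0.295 in WT AAV Tbg-Cre replicate 3 (next 0.0467), Hist1h4k at 0.148 in the same library (next 0.0427) and Hist2h4 at 0.720 in HIRA fl/fl AAV ctl replicate 1 (next 0.233). Each rested on 1 to 42 reads.

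Among the histone genes and the other genes named in the report, the effect of HIRA KO differed between the sexes for 3 in edgeR's quasi-likelihood test, where 275 of all genes were called higher and 112 lower in females minus males. The female minus male difference was 7.86 on the log2 scale for Hist1h2be (adjusted p = 0.0437), 5.30 for Ccne1 (adjusted p = 0.0301) and -1.68 for Cdkn2c (adjusted p = 0.0216). The Hist1h2be value is fitted against male libraries with no reads, depends on the prior count of the fit and is no bound.

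The histone genes under 10 reads, which entered no count test, had a median summed FPKM of 159 in HIRA KO males against 97.2 in control males and of 204 in HIRA KO females against 136 in control females.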

How the results depend on the processing

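The higher calls of Hist1h1c and Hist1h4j over both sexes were kept under every alternative in which the gene was tested. Hist1h4j, however, reached 10 reads only with the HIRA KO libraries. Counts of called histone genes moved more. When genes had to reach 5 CPM in at least 3 mice, which keeps 3 of the 31 genes, 1 gene was called over both sexes (9 in the report), in males (10), in females (3) and against each control group, and 0 for the difference between the sexes (1). With limma voom and sample weights the counts were 4 over both sexes, 2 in males, 9 in females and 0 for the difference, and on log2(FPKM + 1) they were 4, 5, 5 and 0. With HIRA fl/fl AAV ctl as the only controls 3 were called over both sexes, and with WT AAV Tbg-Cre 5. Fitted within each sex, males gave 3 and females 6. An adjusted p below 0.01 left 0 for the difference. Against HIRA fl/fl AAV ctl (5 in the report), no filter on low counts gave 10 and DESeq2 8. Leaving the HIRA KO male libraries out of the fit, an alternative chosen after seeing the data, gave 6 in females. The FPKM test of the genes under 10 reads was also chosen after seeing the data.

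With the replicate number as a block, 6 genes were called over both sexes, 7 in males, 3 in females and 0 for the difference between the sexes. The numbers did not pair the mice: deviations of same-numbered libraries correlated at -0.062 to 0.0975, with 0 of 45 pairs over 0.1.

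Leaving out each library in turn gave 5 to 11 called genes over both sexes, 6 to 14 in males, 1 to 4 in females, 0 to 1 for the difference, 3 to 8 against HIRA fl/fl AAV ctl, 5 to 6 against WT AAV Tbg-Cre and 0 to 0 between the control groups. The lowest count over both sexes came without HIRA KO female replicate 1 and the highest without HIRA KO male replicate 1. Of the values past the threshold in either fit, 3 changed sign: Hist1h2af in males without HIRA KO male replicate 1 (-1.29; -1.29 to 6.90 over the libraries left out), Hist1h4k in males without HIRA KO male replicate 2 (-1.92; -1.92 to 6.25), and Hist2h3c2 in males on log2(FPKM + 1) (0.78, adjusted p = 0.00790, against -0.44). A further 34 values that passed the threshold in neither fit also changed sign, 18 of them when 1 library was left out, such as Hist1h3c (2.30 to -2.40) and Hist1h2ac (1.85 to -1.30) in males without HIRA KO male replicate 3. Counting these, 2502 values of single genes stayed on their side of the threshold, 185 fell below it and 76 rose above it. The causes were not tested.

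Most histone genes had fewer than 100 reads per library, so a gene at 0 reads is not shown to be absent. Of the 215 values at 0 reads among the 31 genes, 163 had an FPKM above 0 and 78 an FPKM of 1 or more.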
